A study of Homo sapiens with 6 samples.

Results

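The 10 core and primed pluripotency factors described here were POU5F1, SOX2, NANOG, LIN28A, LIN28B, SALL4, DPPA4, PRDM14, OTX2 and ZIC2, chosen by name from the 53715 genes of the count table. The choice was made with earlier results of these data known, so counts of factors called beside all-gene shares are description, not a test. All 10 were in the table and all 10 had enough counts to be tested. The cells were H9, a human embryonic stem cell line kept in the primed state, which resembles the epiblast just before gastrulation. They were transfected with 1 of 3 fluorescein-labelled oligonucleotides at 25 nM: ASO-Ctr, an antisense oligo without a specific target, sO-L1, a sense oligo of LINE1 (L1), and ASO-L1, an antisense oligo against L1. L1 is an abundant family of transposable elements, and the study asked how it bears on genes of the 8-cell stage in primed cells. Fluorescent cells were sorted 48 hours after transfection, and poly(A) RNA was sequenced from 2 libraries per group. Cells of all groups were also given trans-ISRIB (0.7 uM), an inhibitor of the integrated stress response, the caspase inhibitor emricasan (5 uM) and the ROCK inhibitor Y-27632 (10 uM), all withdrawn after 24 hours. Which medium the cells were in at collection is unsettled, because the labels name both mTeSR and RSeT for the time after transfection. All libraries came from this single line, and no label calls the replicates separate cultures, so p-values measure only the spread between these libraries, which may be technical.

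POU5F1 (OCT4), SOX2 and NANOG form the core transcription circuit of pluripotent cells: they bind many of the same enhancers, their own included, and keep embryonic stem cells undifferentiated. SALL4, PRDM14 and DPPA4 are further nuclear factors of the pluripotent state, and LIN28A and LIN28B are RNA-binding proteins that block the maturation of let-7 microRNAs. OTX2 and ZIC2 mark the primed state, in which they occupy enhancers together with POU5F1, and both are also used later in neural development.

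Counts summed to 18897936 in the shallowest library and to 67192937 in the deepest, both of ASO-Ctr. The 10 factors together took 0.543% to 0.597% of the counts of a library, and the lowest count of any of them was 1613, for NANOG in ASO-Ctr replicate 1. Levels are given as CPM, counts divided by the TMM-scaled library total and set to a common depth. Each difference is a log2 fold change with its SE, over 2 libraries a group, from edgeR's quasi-likelihood test fitted to all 19156 genes tested, with the replicate number as a block. The adjusted p is the Benjamini-Hochberg value over all of them, and a gene was called where it was under 0.05. The fit draws the spread of each gene mostly from all genes (2 residual degrees of freedom against a median prior of 44.8). An SE is thus not the spread of that factor's own replicates. Without the replicate block none of the 10 factors was called in any comparison, and the adjusted p of that fit stands beside each call below. The labels do not say that a replicate number marks a shared batch or day, so the calls rest on a pairing that is not established. No entry of the table names the L1 element, so the group labels were not checked against the level of the target. In a bulk sample, fewer cells that express a gene and less of its RNA per cell cannot be told apart.

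Promoter sequences of SOX2, NANOG, OTX2 and ZIC2 are shown because these 4 factors differed between ASO-L1 and both other groups. They are RefSeq windows of build GRCh38.p14, from 250 bases before to 50 bases after the start site, written 5′ to 3′ along the gene. Capitals mark matches, on either strand, to the composite OCT-SOX motif (TTGT, any base, then ATGCAA), the octamer core ATGCAAA or the CCAAT box CCAAT. SOX2 lies at chr3:181711675-181711974 (plus strand), NANOG at chr12:7789152-7789451 (plus strand), the upstream of 2 OTX2 starts at chr14:56810430-56810729 (minus strand) and ZIC2 at chr13:99981534-99981833 (plus strand).
SOX2: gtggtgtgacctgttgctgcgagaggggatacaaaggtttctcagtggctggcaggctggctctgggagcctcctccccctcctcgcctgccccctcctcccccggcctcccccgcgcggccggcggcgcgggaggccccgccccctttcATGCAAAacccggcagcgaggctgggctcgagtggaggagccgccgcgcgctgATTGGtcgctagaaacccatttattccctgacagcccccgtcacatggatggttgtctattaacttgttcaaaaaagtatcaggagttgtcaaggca
NANOG: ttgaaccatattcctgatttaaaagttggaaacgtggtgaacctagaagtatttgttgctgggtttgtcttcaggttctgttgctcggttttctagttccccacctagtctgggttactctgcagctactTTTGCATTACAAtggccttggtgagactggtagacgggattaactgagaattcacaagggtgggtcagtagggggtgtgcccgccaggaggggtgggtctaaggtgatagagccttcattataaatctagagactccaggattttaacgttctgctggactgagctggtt
OTX2: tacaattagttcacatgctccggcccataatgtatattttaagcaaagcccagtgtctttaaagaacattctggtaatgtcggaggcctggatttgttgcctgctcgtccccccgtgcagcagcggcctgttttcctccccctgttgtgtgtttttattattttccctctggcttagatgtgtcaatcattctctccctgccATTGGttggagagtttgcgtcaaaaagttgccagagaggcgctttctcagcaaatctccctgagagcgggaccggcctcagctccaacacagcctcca
ZIC2: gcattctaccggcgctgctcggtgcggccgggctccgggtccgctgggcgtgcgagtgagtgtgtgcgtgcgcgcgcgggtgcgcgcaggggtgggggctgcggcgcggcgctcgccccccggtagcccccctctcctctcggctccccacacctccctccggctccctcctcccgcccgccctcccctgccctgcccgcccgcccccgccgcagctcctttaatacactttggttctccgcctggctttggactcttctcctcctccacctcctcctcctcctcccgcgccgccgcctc

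The NANOG window held the composite motif on the minus strand, its leftmost base at position -119 from the start site, and the octamer core that overlaps it from position -120. Of 35116 RefSeq promoter windows of 300 bases, 0.0769% held the composite motif. The SOX2 window held an octamer core at position -100, as did 4.46% of all windows, and a CCAAT box at position -47, as did 34.6%. The OTX2 window held a CCAAT box at position -48, and the window of the other OTX2 start held none of the searched letters. CCAAT boxes were also in the windows of DPPA4 and of 1 of 2 LIN28B starts, factors that were not called. None of the searched letters was in the ZIC2 window, whose GC content was 75.0%, against 46.7% for NANOG. A match is a description of these letters and was not tested for binding. SOX2, NANOG, LIN28B, DPPA4, OTX2 and ZIC2 had entries in the RefSeq table. No window was used for POU5F1, LIN28A, SALL4 and PRDM14. For PRDM14 this says nothing of the RefSeq table, because the search left out its chromosome.

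Levels were compared between factors only per length, as CPM per kb of merged exons in GENCODE release 29 (GRCh38), averaged over the 6 libraries. LIN28A was highest at 466 CPM per kb, followed by POU5F1 at 373, DPPA4 at 213, SOX2 at 176 and ZIC2 at 141. The library ranges of neighbours in this order did not overlap among these 5 factors: 415 to 502 CPM per kb for LIN28A, 348 to 391 for POU5F1, 207 to 218 for DPPA4, 158 to 203 for SOX2 and 129 to 157 for ZIC2. A lower tier held OTX2 (mean 48.2, range 36.5 to 65.1 CPM per kb), PRDM14 (mean 48.0, range 42.1 to 54.2) and LIN28B (mean 41.2, range 39.9 to 43.2), whose ranges overlapped. SALL4 followed with 28.6 to 32.4 CPM per kb and NANOG was lowest with 13.2 to 15.9. These per-length levels depend on the exon models: all annotated exons of a gene were merged, 5393 bases for NANOG against 2513 for SOX2, and the annotation behind the deposited counts was not used here.

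**Figure D1:**
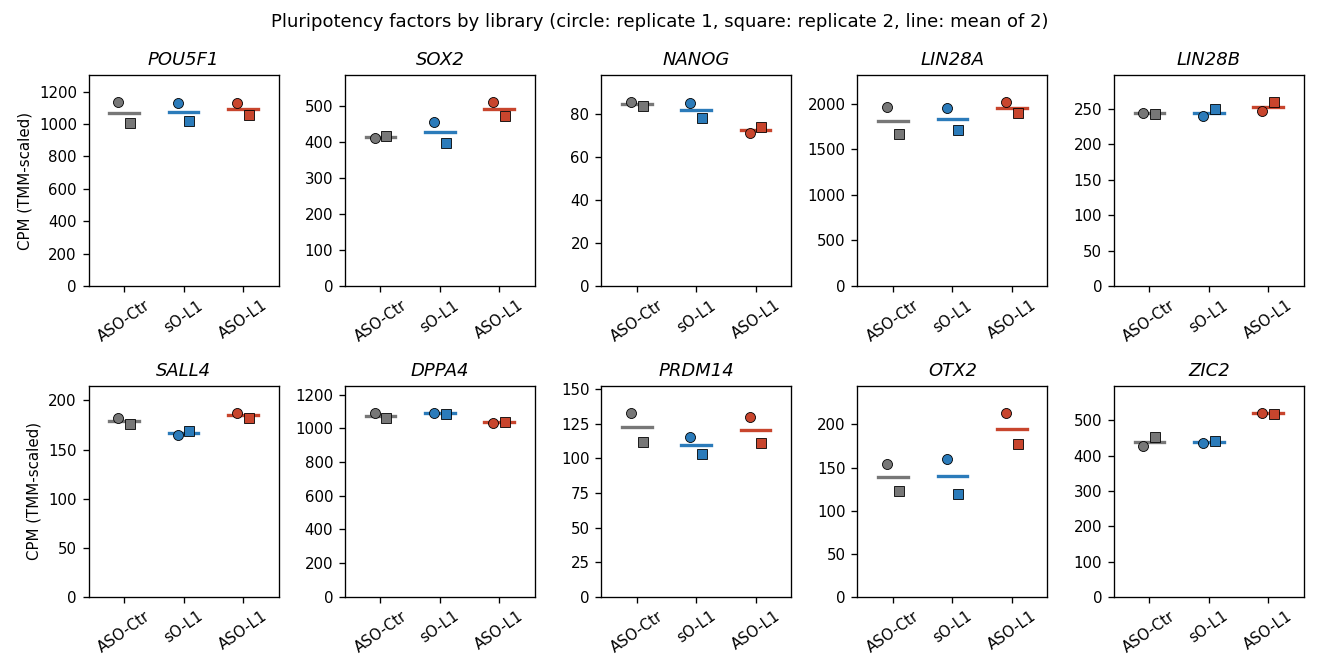
Level of each of the 10 factors in every library, in TMM-scaled CPM on axes that start at 0, with replicate 1 as circles, replicate 2 as squares and the mean of 2 as a line. OTX2, ZIC2, SOX2 and SALL4 sit higher, and NANOG and DPPA4 lower, in both ASO-L1 libraries than in the other 4. Groups that do not overlap were common, with 47.1% of all genes tested against sO-L1 and 48.6% against ASO-Ctr.

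The first comparison, ASO-L1 against sO-L1, sets apart 2 L1 oligos of opposite strand. OTX2, ZIC2, SOX2, SALL4 and PRDM14 rose in ASO-L1, NANOG fell, and POU5F1, LIN28A, LIN28B and DPPA4 were not called. The rises ran from 10.0% for PRDM14 to 40.6% for OTX2, and NANOG fell by 0.17 on the log2 scale. So 6 of 10 factors were called, a count that choosing them with earlier results known may have raised. Of all genes tested, 23% were called (10.3% higher and 12.7% lower). Of the 3792 genes with an average log2 CPM of at least 6, a level that all 10 factors reach, 33.3% were called. Fewer factors were called when any 1 library of ASO-L1 or sO-L1 was left out. The number of all genes called also changed with the library left out and was not set beside these losses. Their median log2 fold change was 0.12, against -0.00051 for all genes, and their median absolute change of 0.14 lay below the 0.16 of all genes. That 0.16 is over genes of every level and was not limited to genes as abundant as the factors. Without the replicate block edgeR called 0 of the 10, against 1.84% of all genes called (0.914% higher and 0.924% lower). An unadjusted p under 0.05 in that fit was found for 4 of the 10 and for 3167 of the 19156 genes tested. With the block, DESeq2 called 4 and limma-voom 6. DESeq2 also called fewer of all genes tested than edgeR did.

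ASO-L1 against ASO-Ctr sets the L1 antisense oligo against the antisense oligo without a target. OTX2, ZIC2 and SOX2 rose and NANOG fell, and the other 6 factors were not called. Against ASO-Ctr, 4 of 10 factors were thus called, where 21.5% of all genes tested (9.88% higher, 11.6% lower) and 32.8% of the genes with an average log2 CPM of at least 6 were called. The median log2 fold change of the 10 was 0.05, and the median absolute change was 0.08, below the 0.16 of all genes, whatever their level. Both comparisons use the same ASO-L1 libraries and are therefore not independent. Without the block edgeR called 0 of the 10 here too, against 1.95% of all genes called (0.903% higher and 1.05% lower). At an unadjusted p under 0.05 that fit had 4 of the 10 and 3207 of the 19156 genes tested. DESeq2 called 4 and limma-voom 5 with the block, LIN28A being the addition. Over all genes tested DESeq2 called fewer than edgeR in this comparison too.

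**Figure D2:**
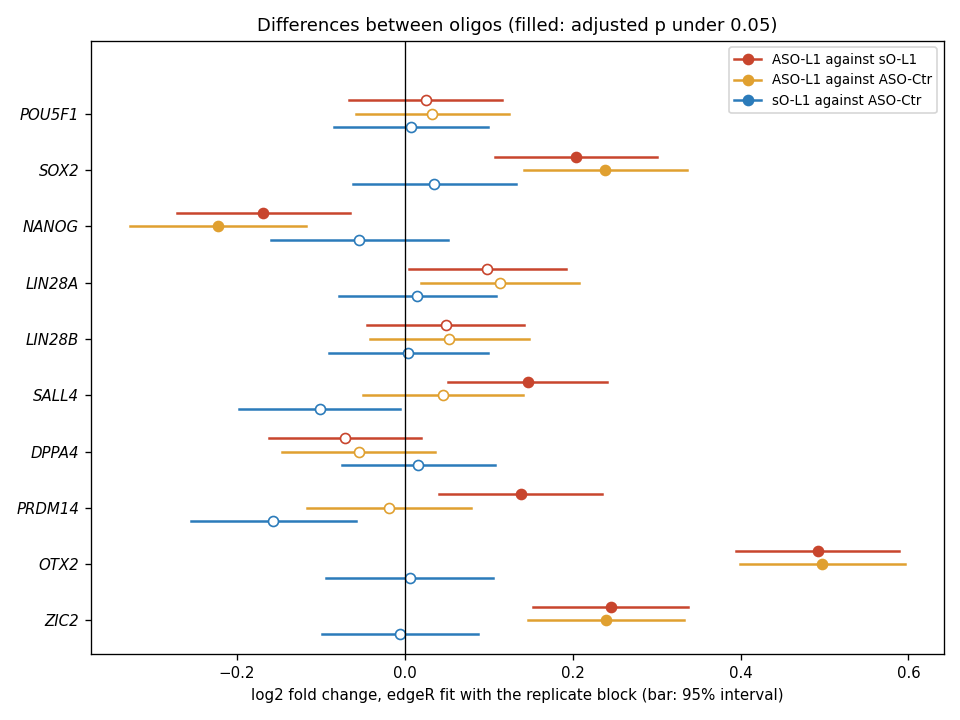
Log2 fold change of each factor in the 3 comparisons from the edgeR fit with the replicate block, with 95% intervals as bars and filled points where the adjusted p was under 0.05. OTX2 stands at 0.49 and 0.50 in the ASO-L1 comparisons, NANOG at -0.17 and -0.22, and no point of sO-L1 against ASO-Ctr is filled.

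OTX2, a homeobox factor of the primed epiblast and later of the forebrain, had the smallest p of the 10 in both ASO-L1 comparisons. Its level was 154 and 123 CPM in ASO-Ctr (replicates 1 and 2), 160.1 and 119 CPM in sO-L1, and 213 and 177 CPM in ASO-L1. Both ASO-L1 libraries lay above the other 4, and in every group replicate 2 was below replicate 1. The means were 138.6 ± 22.2 CPM in ASO-Ctr, 139.8 ± 28.7 in sO-L1 and 195 ± 25.2 in ASO-L1 (SD, n = 2). OTX2 rose by 0.49 ± 0.05 on the log2 scale against sO-L1 (adjusted p = 3.4e-11, or 0.154 without the replicate block) and by 0.50 ± 0.05 against ASO-Ctr (adjusted p = 3.2e-11, or 0.143). The block took out a shift of -0.34 between replicate numbers, the largest in size among the 10 factors. Within replicate 1 the OTX2 difference in log2 CPM from sO-L1 was 0.41 and within replicate 2 it was 0.57. By p it ranked 105 of all genes tested against sO-L1 and 116 against ASO-Ctr.

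ZIC2, a zinc finger factor that acts at enhancers of primed cells and in forebrain development, was 427 and 452 CPM in ASO-Ctr, 435 and 441 CPM in sO-L1, and 520.1 and 518 CPM in ASO-L1. The ASO-L1 libraries lay above all others and close together, and ZIC2 showed little shift between replicate numbers (0.03 on the log2 scale). It rose by 18.5% against sO-L1 (0.25 ± 0.05, adjusted p = 5.3e-05, or 0.11 without the replicate block) and by 18.1% against ASO-Ctr (0.24 ± 0.05, adjusted p = 8.3e-05, or 0.115).

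SOX2, the HMG-box partner of POU5F1, was 412 and 416 CPM in ASO-Ctr, 455 and 397 CPM in sO-L1, and 509 and 471 CPM in ASO-L1. Its ASO-L1 libraries were the highest of the 6, with a gap of 471 against 455 CPM to the nearest sO-L1 library. SOX2 rose by 0.20 ± 0.05 against sO-L1 (adjusted p = 0.00117, or 0.268 without the replicate block) and by 0.24 ± 0.05 against ASO-Ctr (adjusted p = 1.7e-04, or 0.187). The first call was lost without sO-L1 replicate 2 (0.13, adjusted p = 0.179), and the second without ASO-Ctr replicate 1 (0.16, adjusted p = 0.111).

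NANOG, a homeodomain factor that supports self-renewal, moved the other way. It was 85.6 and 84.0 CPM in ASO-Ctr, 85.6 and 78.2 CPM in sO-L1, and 71.3 and 73.9 CPM in ASO-L1, so that both ASO-L1 libraries were below the other 4. NANOG fell by 0.17 ± 0.05 on the log2 scale against sO-L1 (adjusted p = 0.0128, or 0.29 without the replicate block) and by 0.22 ± 0.05 against ASO-Ctr (adjusted p = 0.00116, or 0.176). The sO-L1 difference was -0.26 within replicate 1 and -0.08 within replicate 2. It was not called with DESeq2 (adjusted p = 0.0627) or after thinning to the shallowest library (adjusted p = 0.147). NANOG also lost that call without sO-L1 replicate 1 (-0.10, adjusted p = 0.417) and without ASO-L1 replicate 1 (-0.10, adjusted p = 0.389). The call against ASO-Ctr was lost without ASO-L1 replicate 1 (-0.16, adjusted p = 0.102).

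POU5F1, the POU factor without which pluripotency is lost, was 1133 and 1007 CPM in ASO-Ctr, 1131 and 1020.0 CPM in sO-L1, and 1130.1 and 1056 CPM in ASO-L1. The 3 groups overlapped throughout. The log2 difference for POU5F1 was 0.03 ± 0.05 against sO-L1 (adjusted p = 0.751) and 0.03 ± 0.05 against ASO-Ctr (adjusted p = 0.678). The 95% intervals of that fit were -0.07 to 0.12 and -0.06 to 0.12. Without the replicate block the POU5F1 differences were 0.02 ± 0.09 and 0.03 ± 0.09 (SE), so their intervals are wider, and neither fit shows that POU5F1 was equal in the groups.

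SALL4, a zinc finger factor that binds POU5F1 and chromatin repressors, was 182 and 176 CPM in ASO-Ctr, 165 and 169 CPM in sO-L1, and 187 and 182 CPM in ASO-L1. PRDM14, a repressor of differentiation genes, was 133 and 112 CPM in ASO-Ctr, 116 and 103 CPM in sO-L1, and 129.7 and 111 CPM in ASO-L1. For both, the lowest mean was that of sO-L1, while ASO-L1 and ASO-Ctr lay close together. The ASO-L1 libraries of SALL4 were the highest of all, by a narrow gap of 182.5 against 182.2 CPM in ASO-Ctr replicate 1. SALL4 rose by 0.15 ± 0.05 against sO-L1 (adjusted p = 0.0185, or 0.308 without the replicate block), and its difference from ASO-Ctr was 0.05 ± 0.05 (adjusted p = 0.561). PRDM14 rose by 0.14 ± 0.05 against sO-L1 (adjusted p = 0.0314, or 0.568 without the replicate block), and its difference from ASO-Ctr was -0.02 ± 0.05 (adjusted p = 0.843). SALL4 and PRDM14 each lost the call when any 1 library of ASO-L1 or sO-L1 was left out, with adjusted p-values of 0.0503 to 0.29 for SALL4 and 0.0794 to 0.348 for PRDM14. PRDM14 was not called with DESeq2 either (adjusted p = 0.0735).

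DPPA4, a chromatin-bound protein of pluripotent and germ cells, was 1089 and 1063 CPM in ASO-Ctr, 1090.0 and 1086 CPM in sO-L1, and 1032 and 1039 CPM in ASO-L1. Both ASO-L1 libraries were the lowest, and the groups did not overlap. The difference for DPPA4 was -0.07 ± 0.05 against sO-L1 (adjusted p = 0.278) and -0.06 ± 0.05 against ASO-Ctr (adjusted p = 0.436), and neither was called. Groups that do not overlap were common here: they made up 47.1% of all genes tested against sO-L1 and 48.6% against ASO-Ctr, and 6 and 7 of the 10 factors.

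LIN28A, the more abundant of the LIN28 pair per length, was 1965 and 1663 CPM in ASO-Ctr, 1952 and 1710.4 CPM in sO-L1, and 2013 and 1898 CPM in ASO-L1. The groups overlapped, and replicate 2 was below replicate 1 in each. The LIN28A difference was 0.10 ± 0.05 against sO-L1 (adjusted p = 0.13) and 0.11 ± 0.05 against ASO-Ctr (adjusted p = 0.077). Against ASO-Ctr it passed with limma-voom (adjusted p = 0.0292), without the low-count filter (adjusted p = 0.0377) and without ASO-L1 replicate 1 (adjusted p = 0.0303). LIN28B, its paralog, ranged from 239.6 CPM in sO-L1 replicate 1 to 259 CPM in ASO-L1 replicate 2, and its differences of 0.05 ± 0.05 in both ASO-L1 comparisons were not called (adjusted p = 0.502 and 0.472).

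**Figure D3:**
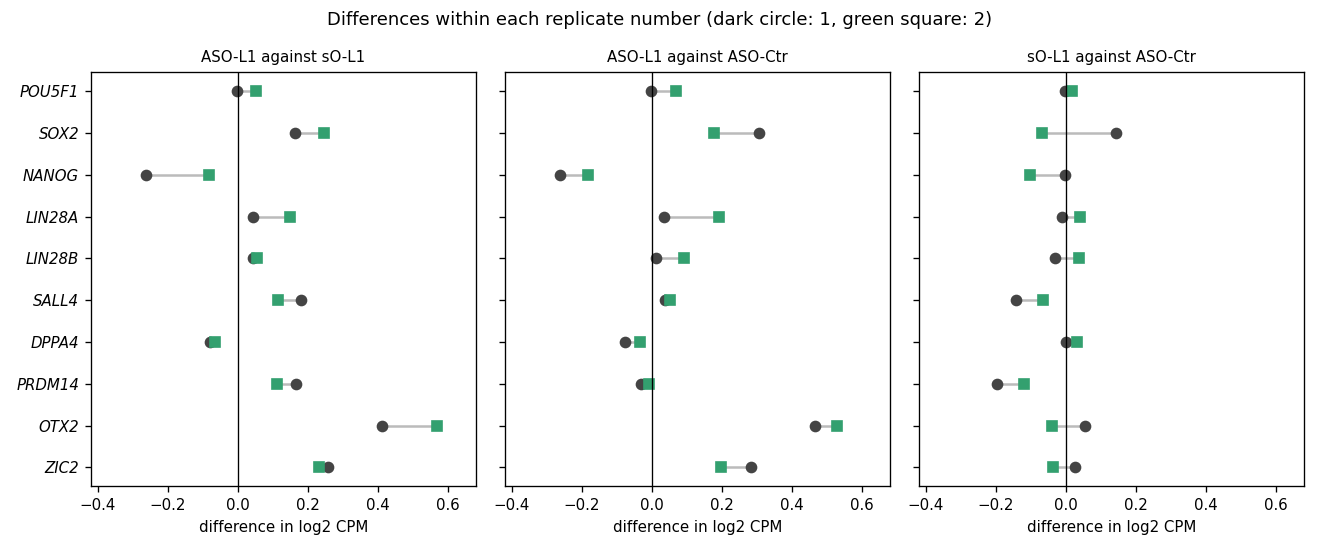
Difference in log2 CPM between groups within each replicate number, for replicate 1 (dark circles) and replicate 2 (green squares). For 9 of the 10 factors both replicates have the same sign in each ASO-L1 comparison, and for 4 of 10 in sO-L1 against ASO-Ctr. The exception in the ASO-L1 comparisons is POU5F1. The share of all genes tested with the same sign in both replicates was not counted.

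sO-L1 against ASO-Ctr compares the control oligos with each other. None of the 10 factors was called by edgeR, with 2 at an unadjusted p under 0.05, and none by DESeq2 or limma-voom. Of all genes tested, 1.72% were called, 0.658% higher and 1.06% lower. Without the block 0 were called, and 569 of all genes but 0 of the 10 factors had an unadjusted p under 0.05. The all-gene count at an unadjusted p was not taken with the block. The differences ran from -0.16 ± 0.05 for PRDM14 (adjusted p = 0.0959) to 0.04 ± 0.05 for SOX2 (adjusted p = 0.833). SALL4, at -0.10 ± 0.05 (adjusted p = 0.356), was the other factor with an unadjusted p under 0.05. It was also the 1 factor of 10 whose groups did not overlap, as in 29.7% of all genes tested, and of the genes with an average log2 CPM of at least 6, 3.8% were called. PRDM14 passed after thinning to the shallowest library (-0.19, adjusted p = 0.0341). OTX2 and ZIC2 differed by 0.01 ± 0.05 and -0.01 ± 0.05 between these groups.

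**Figure D4:**
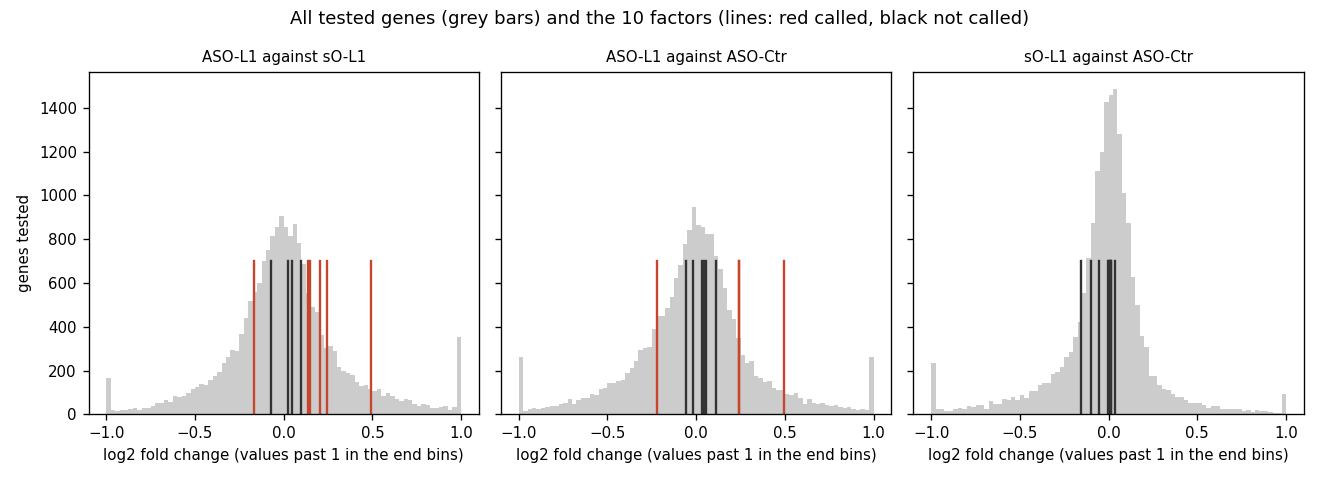
Histograms of the log2 fold changes of all 19156 tested genes in each comparison, with the 10 factors as lines (red where called, black where not). Apart from OTX2 at 0.49 and 0.50, the factors lie within 0.25 of 0, in the dense part of the distribution.

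The authors' deposited table of ASO-L1 against sO-L1 gives adjusted p-values under 0.05 for 7 of the 10 factors, where 23.2% of its 16753 genes have one. In the authors' deposited table these are OTX2, ZIC2, SOX2, SALL4, PRDM14 and LIN28A, higher in ASO-L1, and NANOG, lower. Its log2 fold change is 0.50 for OTX2, 0.25 for ZIC2, 0.22 for SOX2 and -0.16 for NANOG in the authors' deposited table. LIN28A, at 0.11, has an adjusted p of 0.0455 in the authors' deposited table. That table and the fit described here come from the same 6 libraries and are not independent.

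The other pluripotency genes also moved in both directions. Of 42 listed core and primed genes other than the 10 factors, 41 were in the table and 40 were tested, and 7 rose, 13 fell and 20 were not called in ASO-L1 against sO-L1, with a median log2 fold change of -0.02. Over all genes tested, 23% were called (10.3% higher, 12.7% lower; 33.3% of those with an average log2 CPM of at least 6), with a median of -0.00051. Without the replicate block, 2 of the 40 rose and 1 fell, beside 0.914% and 0.924% of all genes tested. ESRG, a long non-coding RNA of human pluripotent cells, rose from a mean of 393 to 568 CPM, or by 0.53 ± 0.05 (adjusted p = 7.8e-13, or 0.0083 without the replicate block). FGF2, a growth factor on which primed cells depend, rose from 153 ± 3.66 to 192 ± 7.24 CPM (SD, n = 2; 0.33 ± 0.05, adjusted p = 5.4e-07, or 0.0493). NR6A1, a nuclear receptor that represses POU5F1 during differentiation, fell by 0.38 ± 0.05 (adjusted p = 5.2e-08, or 0.0596 without the replicate block). TERF1, a telomere-binding protein, fell by 0.33 ± 0.05 (adjusted p = 2.0e-07, or 0.0596). Against ASO-Ctr, 7 of the 40 rose and 11 fell, and 2 and 3 without the replicate block. Over all genes tested the shares were 9.88% higher and 11.6% lower, and 0.903% and 1.05% without the block. Against ASO-Ctr the same 4 genes differed by 0.35 ± 0.05 for ESRG, 0.36 ± 0.05 for FGF2, -0.53 ± 0.05 for NR6A1 and -0.28 ± 0.05 for TERF1. In sO-L1 against ASO-Ctr, 2 rose and 1 fell with the block and 0 were called without it. Of all genes tested, 0.658% rose and 1.06% fell there with the block, and 0 were called without it.

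**Figure D5:**
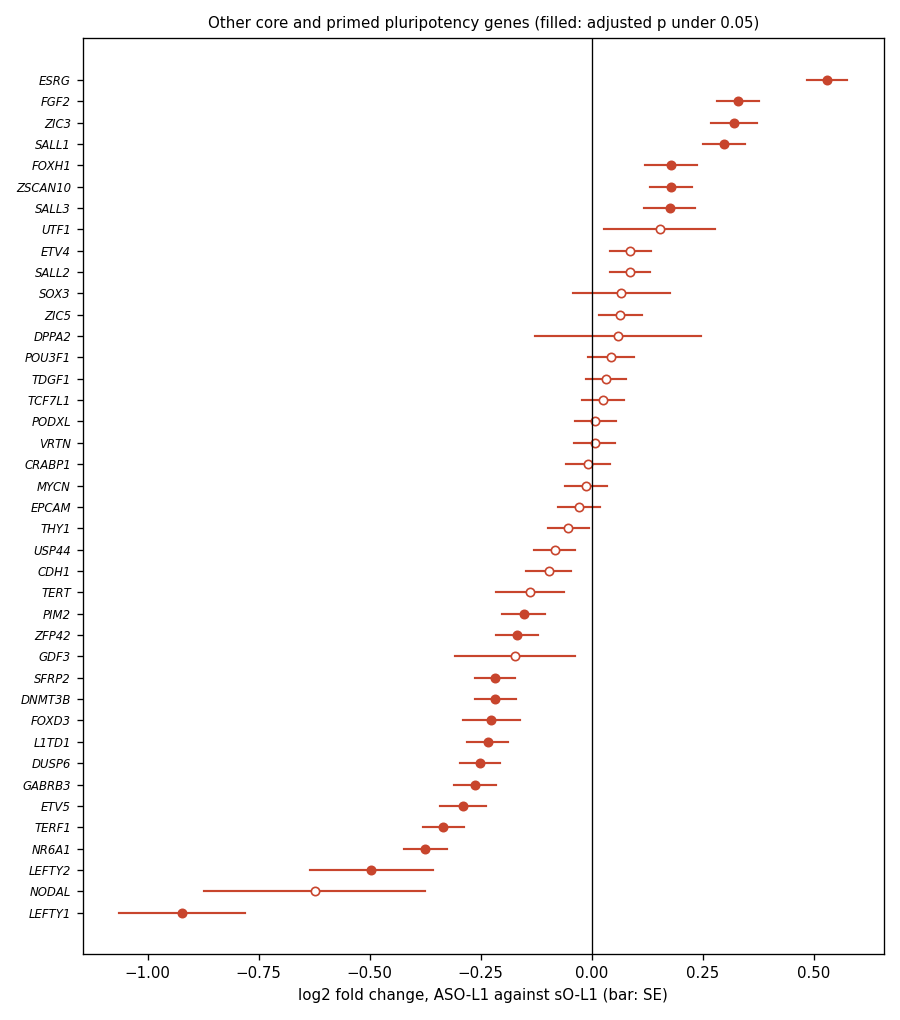
Log2 fold change ± SE of the 40 tested core and primed pluripotency genes other than the 10 factors in ASO-L1 against sO-L1, filled where the adjusted p was under 0.05. ESRG and FGF2 lead the 7 genes that rose, and 13 genes fell.

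Genes of the naive state, the earlier form of pluripotency, were scarce: of 16 listed, 8 were tested, and their summed level was 18.8 to 20.6 CPM in sO-L1 and 20.0 to 24.6 CPM in ASO-L1. Of these 8, 3 rose, 1 fell and 4 were not called against sO-L1, with a median of 0.09 (all genes tested: 10.3% higher, 12.7% lower), and 1 rose without the replicate block. KLF4, a zinc finger reprogramming factor, rose from 1.45 ± 0.0292 to 5.34 ± 0.951 CPM (1.86 ± 0.17, adjusted p = 4.3e-12, or 0.00815). DPPA3 rose by 0.97 ± 0.20 (adjusted p = 1.7e-04, or 0.0661), KLF5 by 0.62 ± 0.21 (adjusted p = 0.0252, or 0.194), and GBX2 fell by 0.59 ± 0.12 (adjusted p = 2.6e-04, or 0.552 without the replicate block). Against ASO-Ctr 2 rose and 1 fell, and 1 and 0 without the replicate block. All genes tested had 9.88% higher and 11.6% lower there, and 0.903% and 1.05% without the block.

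The LIN28 proteins act through let-7, and of 19 tested genes of that axis (microRNA processing genes and let-7 targets) 8 rose, 3 fell and 8 were not called against sO-L1, with a median of 0.08, beside 10.3% higher and 12.7% lower over all genes tested, whose median was -0.00051. Leaving out the replicate block gave 0 calls by edgeR and 7 genes at an unadjusted p under 0.05, as had 3167 of all 19156 genes tested. DGCR8, the RNA-binding partner of the nuclear microRNA processor, rose by 0.32 ± 0.05 (adjusted p = 2.5e-06, or 0.0573). The cyclin CCND2 rose by 0.29 ± 0.05 (adjusted p = 6.3e-06, or 0.0781) and the cyclin CCND1 fell by 0.34 ± 0.06 (adjusted p = 6.0e-06, or 0.318 without the replicate block). NR6A1, given above, is on this list too. Against ASO-Ctr 4 rose and 4 fell, and 0 and 1 without the replicate block. The all-gene shares there were 9.88% higher and 11.6% lower, and 0.903% and 1.05% without the block. The let-7 microRNAs themselves were not analysed here.

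Near-identical copies and overlapping genes touch some of these counts. Of the 50-base windows in GENCODE release 29 transcripts of POU5F1, 37.4% also occurred in a transcript of another gene, led by POU5F1B, POU5F1P3 and POU5F1P4, and of those of NANOG 16.8%, led by NANOGP8. For the other 8 factors the share was between 0 and 2.83%. NANOGP8 had 176 to 708 counts in a library, against 1613 to 5762 for NANOG, and POU5F1B had 26 to 68, against 21340 to 69101 for POU5F1. None of the 7 tested genes on a list of copies and neighbouring or antisense transcripts was called in any comparison by edgeR, among them POU5F1B (0.52 ± 0.27, adjusted p = 0.181), SOX2-OT (0.14 ± 0.11, adjusted p = 0.395), NANOGP8 (-0.09 ± 0.10, adjusted p = 0.552) and NANOGP1 (-0.16 ± 0.20, adjusted p = 0.637) against sO-L1. TCF19 and LIN28B-AS1 were not among these 7. Exons of TCF19 lie opposite 8.56% of the merged exon bases of POU5F1, and exons of LIN28B-AS1 opposite 1.12% of those of LIN28B. How reads that match several genes or either strand were counted is not given in the sources used here, so counts of POU5F1 and NANOG are uncertain to that extent.

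Marker lists of other cell types were measured beside these results, with calls from ASO-L1 against sO-L1. In that comparison 10.3% of all genes tested were called higher and 12.7% lower. Mesendoderm genes (7 of 12 tested) summed to 5.36 to 5.68 CPM in ASO-L1 and 7.10 to 7.63 CPM in sO-L1, with HAND1 at 0 counts in every library and SOX17 at 0 in 4 of 6. EOMES rose (1.13 ± 0.41, adjusted p = 0.0406, or 0.362 without the replicate block) and FOXA2 fell (-1.13 ± 0.16, adjusted p = 3.0e-07, or 0.0213). Neural genes (10 of 12 tested) summed to 301 to 333 CPM in ASO-L1 and 278 to 316 CPM in sO-L1, most of it TUBB3 at 213 ± 9.59 and 204 ± 10.6 CPM. Of the neural genes 2 rose and 1 fell, SOX21 by 1.76 ± 0.10 (adjusted p = 1.8e-19, or 0.0596), LHX2 by 0.40 ± 0.12 (adjusted p = 0.0102, or 0.48) and FABP7 by -0.30 ± 0.09 (adjusted p = 0.011, or 0.77). Since OTX2, ZIC2 and SOX2 are also expressed in neural cells, the part of such cells in their rise was not tested. Trophoblast and amnion genes (4 of 12 tested) summed to 13.6 to 13.8 CPM in ASO-L1 and 13.1 to 14.0 in sO-L1, with TFAP2C higher (0.69 ± 0.25, adjusted p = 0.036, or 0.439). Fibroblast genes (8 of 12 tested) summed to 376 CPM in both ASO-L1 libraries and 340 to 365 in sO-L1. The median log2 fold change of these 8 was -0.04, so the higher sum was not a rise of most of them. COL1A1 rose by 0.63 ± 0.06 (adjusted p = 3.3e-09, or 0.029) and THBS2 by 0.16 ± 0.06 (adjusted p = 0.0401, or 0.49 without the replicate block).

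The gene whose log2 CPM over the 6 libraries was most like that of OTX2 was PQBP1 (Pearson r = 0.999), then CHTOP (0.998) and ZDHHC18 (0.994), among 12923 genes with a mean log2 CPM of at least 1. Of these, 196 had an r over 0.95, and the 6 points share libraries, depth and the shift between replicate numbers. PQBP1 stood at 59.2 and 50.4 CPM in ASO-Ctr, 59.5 and 49.7 CPM in sO-L1, and 72.9 and 63.8 CPM in ASO-L1, with both ASO-L1 libraries above the other 4. Its difference was 0.33 ± 0.05 against sO-L1 (adjusted p = 3.0e-06, or 0.199 without the replicate block). PQBP1 was picked for its likeness to OTX2 in these same libraries, so the direction of its difference follows from the choice. CHTOP, at 0.12 ± 0.05 (adjusted p = 0.058), and ZDHHC18, at 0.10 ± 0.05 (adjusted p = 0.165), were not called.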

How the data were processed

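RNA of 6 H9 libraries was sequenced after poly(A) selection with a directional kit, and the labels gave groups and replicate numbers. The submitters' processing notes name Trim Galore 0.4.0, TopHat2 2.0.13, hg19 and, for counting, featureCounts (Subread 1.5.0). Deposited values used for the tests are the authors' raw counts, one row for each gene symbol. Its name says that duplicates were removed, and how strand was treated is not given in the sources used here. The authors also deposited log2 normalized values, batch-corrected by the table's name, and a comparison table with log2 fold changes, p-values and test scores (the scores were not used). The sign of that comparison matched the deposited log2 values (r = 0.996 across genes).

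After 92 spike-in entries were left out, 19156 genes passed filterByExpr (minimum count 10, minimum total 15). The counts of all 6 libraries, TMM-scaled, entered 1 robust quasi-likelihood fit (edgeR 4.0.16, R 4.3.3) with terms for group and replicate number, leaving 2 residual degrees of freedom per gene and a median prior of 44.8. The SE was taken as the size of the log2 fold change divided by the root of F. The block follows the authors' batch-corrected table, in which the means of the replicate numbers lay within 0.02 (log2) for 82.6% of genes, against 9.13% of the same genes in log2 CPM. Differences of replicate 2 from replicate 1 correlated between groups by 0.224, 0.153 and 0.246 across genes, and no label ties a replicate number to a batch.

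The 10 members and the 8 other lists were chosen with earlier results of these data known. All members were named, with up to 4 genes of each other list by p in ASO-L1 against sO-L1, and the 3 genes most like the member with the smallest p. TUBB3, SOX17 and HAND1 were added after their values were seen. The alternatives were size factors of DESeq2, upper-quartile scaling, no low-count filter, a minimum of 0.5 CPM in 2 libraries, the tools DESeq2 1.42.0 and limma-voom (limma 3.58.1), no replicate block, a fit to the 4 libraries compared alone, thinning to the shallowest library, and leaving out each library in turn. The fit was also run on counts simulated from its own estimates, with the replicate shift built in. That run cannot tell whether replicate numbers pair the libraries.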

Additional observations from a re-analysis of the deposited data

How the results depend on the processing

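Of 450 values of single factors under the alternatives, 406 kept their direction and their side of the threshold, 26 lost a call, 4 gained one and 14 changed sign. Every change of sign was in a difference that was not called. Without the replicate block, edgeR called 0 of the 10 factors in each comparison, and 352 genes of all tested in ASO-L1 against sO-L1, 374 in ASO-L1 against ASO-Ctr and 0 in sO-L1 against ASO-Ctr, where the block had given 4412, 4120 and 330. The log2 fold change itself hardly moved without the replicate block (OTX2 0.48 against 0.49 in ASO-L1 against sO-L1), while its SE rose from 0.05 to 0.15. No label says that the replicate numbers pair the libraries. DESeq2 called 2355, 2436 and 125 genes. In sO-L1 against ASO-Ctr limma-voom called 191 and the fit to the 4 libraries compared 516. Thinning to the shallowest library called 1 of the 10 factors there, PRDM14.

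Leaving out 1 library at a time gave 3 to 6 factors called in ASO-L1 against sO-L1. With either sO-L1 library or ASO-L1 replicate 1 left out it was 3, and with ASO-L1 replicate 2 left out it was 4. Genes called of all tested ran from 1802 to 4702 there, from 2336 to 3693 in ASO-L1 against ASO-Ctr and from 9 to 496 in sO-L1 against ASO-Ctr. A group left with 1 library is assumed to vary like the others. The sign changed within these ranges of log2 fold change. In sO-L1 against ASO-Ctr they were LIN28A -0.0342 to 0.0696, LIN28B -0.0321 to 0.0419, NANOG -0.119 to 0.0236, OTX2 -0.0544 to 0.0725, POU5F1 -0.0135 to 0.0334, SOX2 -0.0450 to 0.126 and ZIC2 -0.0390 to 0.0359. In the ASO-L1 comparisons they were POU5F1 -0.00681 to 0.0554 against sO-L1 and PRDM14 -0.0454 to 0.00539 against ASO-Ctr. LIN28B was -0.000741 with upper-quartile scaling and ZIC2 0.0118 after thinning, both in sO-L1 against ASO-Ctr. OTX2 and ZIC2 kept their calls in both ASO-L1 comparisons under the 14 alternatives other than the fit without the block.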
